A study of Macaca fascicularis with 6 samples.

Results

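Glutathione peroxidases and redox selenoproteins were followed in liver of cynomolgus macaques (Macaca fascicularis) after treatment with a liver X receptor (LXR) ligand or with vehicle. The set holds 8 genes, GPX1, GPX2, GPX3, GPX4, SELENOP, TXNRD1, TXNRD2 and MSRB1, out of 19775 genes that the array annotation names alone on a probe set. Every probe set whose only gene symbol was one of these was taken, which gave 14 of 54675 probe sets. The genes had been chosen by their signals in these same arrays, with the difference between ligand and vehicle known, so that difference is given for them as a description, without a p-value.

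Liver RNA was measured in 6 animals with 1 Affymetrix array each: 3 animals given the LXR ligand (titles Liv_GW) and 3 given vehicle (titles Liv_Veh). The labels give no genotype, age, sex, dose or length of treatment, and no name for the ligand beyond the letters GW. The array was designed for human transcripts, so macaque RNA was read by human probes, and all 8 member symbols are also gene symbols in the macaque annotation.

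Selenoproteins carry selenocysteine, an amino acid inserted at a UGA codon that would otherwise stop translation, and in the redox enzymes it usually sits in the active site. Glutathione peroxidases reduce hydrogen peroxide and lipid hydroperoxides with electrons from glutathione, thioredoxin reductases keep thioredoxin reduced with NADPH, and methionine sulfoxide reductases repair oxidised methionine. The liver is the main site of selenium handling and secretes selenoprotein P, which carries selenium to other tissues. LXR is a nuclear receptor for oxidised cholesterol that switches on genes of sterol efflux and fatty acid synthesis.

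Known LXR targets were set beside the labels. They were chosen with earlier results of these data known, so they are a description and not an independent check. SREBF1, a driver of lipid synthesis genes, had signals of 3826, 1289 and 3450 on ligand arrays 1 to 3 against 337, 408 and 541 on vehicle arrays 1 to 3. That was the brighter of its 2 tested probe sets, at a log2 difference of 2.57. The other went lower, and the mean of both was 0.99. ABCG1, a cholesterol exporter, MYLIP, a ligase that removes lipoprotein receptors, and ABCA1, which loads cholesterol onto apolipoprotein A-I, had log2 differences of 1.31, 1.36 and 0.77, and for each the ligand and vehicle arrays did not overlap. Of all genes tested, 6.21% had all ligand arrays above all vehicle arrays. ABCA1 was 0.48 with vehicle array 1 omitted. ABCG1 and MYLIP had 4 tested probe sets each, all higher with the ligand, and the means of these were 0.82 and 1.09. Signals are MAS5 intensity values in arbitrary units, and every difference is ligand minus vehicle on log2(signal + 16) with its standard error (SE) from limma. That SE blends the probe set's own spread with the spread of probe sets of like intensity. It is therefore not set by the probe set's within-group SD alone. No probe set passed limma's test at an adjusted p of 0.05 among 27304 tested (0% called higher and 0% lower), whereas 1523 (5.58%) had an unadjusted p under 0.05. Ligand array 1 stood apart from the other 5 on the first principal component (-89.8 against 0.632 to 36.8), and having only 3 animals per group limits how precise each value can be.

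Among the 14 probe sets, 10 were bright enough to be tested and each of the 8 genes had at least 1 of them. On the brightest tested probe set of a gene, 4 genes were lower and 4 higher on the ligand arrays. Their median log2 difference was 0.11, against 0.0027 over the 13349 genes tested. Groups did not overlap on 5 of the 10 tested member probe sets, 2 above and 3 below vehicle, beside a background of 11% of all tested probe sets (5.99% above and 4.96% below). That contrast chose the genes, so nothing is read from the count.

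**Figure D1:**
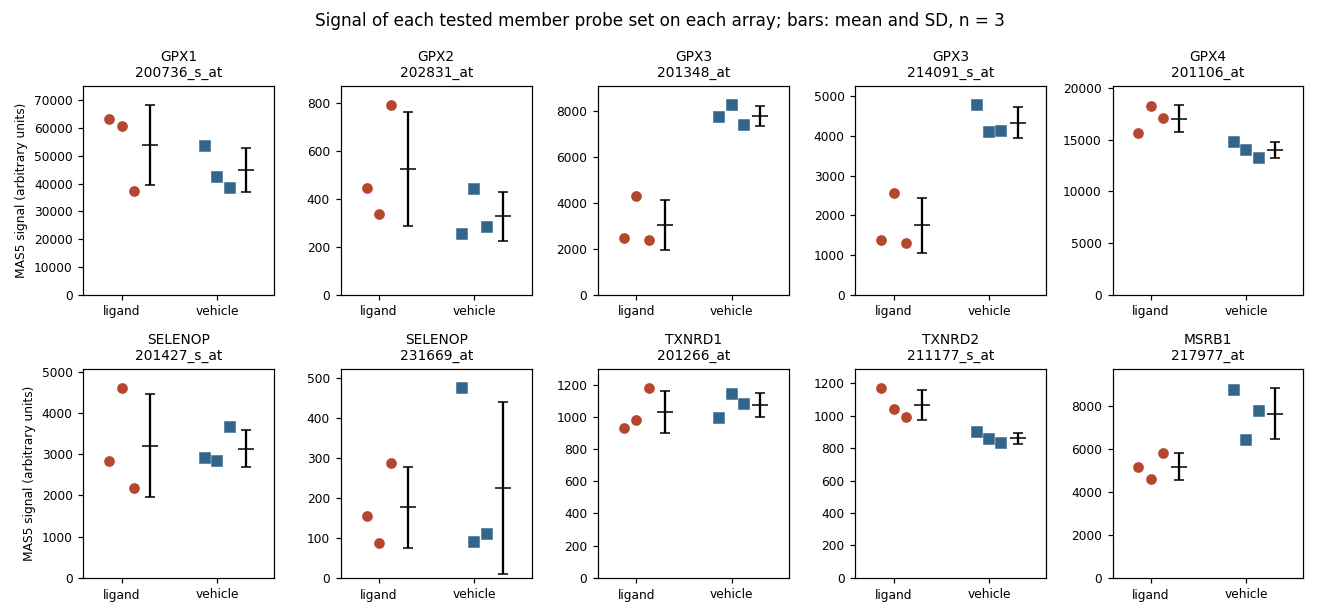
MAS5 signal (arbitrary units, linear axis from 0) of the 10 tested member probe sets on each array, ligand (circles) left of vehicle (squares), with the mean and SD of each group (n = 3). Both GPX3 probe sets and MSRB1 lie lower on all 3 ligand arrays, GPX4 and TXNRD2 lie higher on all 3, and the other 5 probe sets overlap.

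GPX3, the secreted glutathione peroxidase of blood plasma, known to be made mostly by the kidney, had the largest difference of the 8 genes. Its brighter probe set (201348_at) gave 2471, 4307 and 2367 on ligand arrays 1 to 3, against 7738, 8270 and 7417 on vehicle arrays 1 to 3. All ligand arrays lay below all vehicle arrays, and ligand array 2 lay between the other ligand arrays and the vehicle arrays. Means were 3048 ± 1091 with the ligand and 7808 ± 431 with vehicle (SD, n = 3 each), a log2 difference of -1.41 ± 0.24 (SE), or 2.65-fold lower with the ligand.

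The other GPX3 probe set (214091_s_at) showed the same order of arrays within the ligand group. It gave 1382, 2549 and 1307 on ligand arrays 1 to 3, against 4778, 4105 and 4119 on vehicle arrays 1 to 3, a log2 difference of -1.37 ± 0.27 (SE). The 2 probe sets read the same animals, so they are not separate evidence on the treatment. With any 1 array left out, the log2 difference stayed between -1.68 and -1.25 on the brighter probe set and between -1.67 and -1.20 on the dimmer, with both lowest values without ligand array 2. Without ligand array 1, which stood apart, the log2 differences were -1.28 and -1.24.

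**Figure D2:**
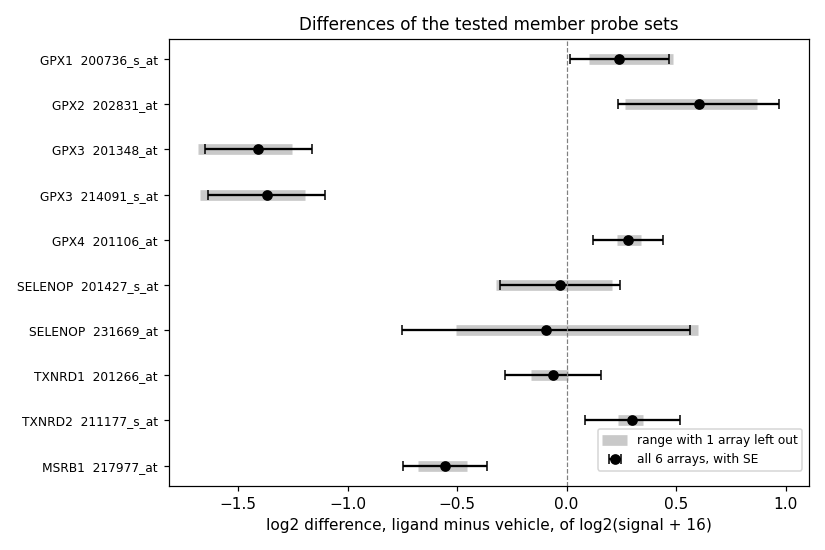
Log2 difference, ligand minus vehicle, of each tested member probe set (points, with SE), over the range reached when 1 array is left out (grey bars). Both GPX3 probe sets lie near -1.4, MSRB1 lies at -0.56, and the bars of both SELENOP probe sets and of TXNRD1 cross 0.

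The peroxidases inside the cell, GPX4, GPX1 and GPX2, had mean signals above those of vehicle. GPX4, the peroxidase that reduces phospholipid hydroperoxides within membranes and restrains ferroptosis, gave 15655, 18282 and 17103 on ligand arrays 1 to 3, against 14796, 13948 and 13207 on vehicle arrays 1 to 3 (201106_at). The lowest ligand array exceeded the highest vehicle array by a small margin. The means were 17013 ± 1316 and 13984 ± 795 for ligand and vehicle (SD, n = 3 each), a log2 difference of 0.28 ± 0.16 (SE), or 1.22-fold higher. GPX4 had a within-group SD of 0.098 on the log2 scale, at the 1.53 percentile of the tested probe sets, whose median was 0.404.

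GPX1, the abundant peroxidase of the cytosol and mitochondria, gave 63348, 60869 and 37184 on ligand arrays 1 to 3, against 53595, 42230 and 38360 on vehicle arrays 1 to 3 (200736_s_at). Ligand array 3 was the lowest of all 6 and the groups overlapped. Its log2 difference was 0.24 ± 0.23 (SE), about the size of its error, and leaving out ligand array 1 gave 0.10, leaving out ligand array 3 gave 0.49.

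GPX2, the peroxidase best known from the gut epithelium and a target of the oxidant sensor NRF2, gave 443, 335 and 790 on ligand arrays 1 to 3, against 254, 442 and 283 on vehicle arrays 1 to 3 (202831_at). One ligand animal was far above the rest, and the others overlapped with vehicle. The log2 difference was 0.60 ± 0.37 (SE), and 0.27 without ligand array 3. A second GPX2 probe set (239595_at) was too dim to be tested, at 71.3 to 129 with the ligand and 64.2 to 99.2 with vehicle.

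SELENOP, the selenium carrier secreted by hepatocytes, showed no separation between the groups on any of its 3 probe sets. The brightest (201427_s_at) gave 2824, 4597 and 2191 on ligand arrays 1 to 3, against 2905, 2844 and 3657 on vehicle arrays 1 to 3. The highest and the lowest of the 6 values were both from ligand animals. Its log2 difference was -0.03 ± 0.27 (SE), and its sign changed with 3 of the 6 arrays when each was left out, with extremes of -0.32 when ligand array 2 was omitted and 0.21 when ligand array 3 was.

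The second tested SELENOP probe set (231669_at) was dim and scattered, at 88.2 to 287 with the ligand and 89.8 to 474 with vehicle. It had a log2 difference of -0.09 ± 0.66 (SE). The third (229620_at) was below the filter, at 98.1 to 130 with the ligand and 89.8 to 123 with vehicle. Both dim probe sets overlapped between the groups as the bright one did.

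Ligand array 2 was the highest ligand array for both GPX3 probe sets and for the bright SELENOP probe set, by 0.55, 0.61 and 0.59 above the ligand mean on the log2 scale. On vehicle arrays, the 3 probe sets kept within 0.23 of their group mean. SEPHS2, the selenophosphate synthetase that supplies selenium for selenocysteine and is itself a selenoprotein, was also highest on ligand array 2 among ligand arrays, at 3278, 8297 and 5530 on ligand arrays 1 to 3 against 7206, 7084 and 7792 on vehicle arrays 1 to 3. For SEPHS2 the lowest ligand animal was number 1, whereas for SELENOP it was number 3. Other members differed: ligand array 2 was the lowest ligand array for SELENOP 231669_at, GPX2 (202831_at) and MSRB1, at -0.75, -0.53 and -0.17 from the ligand mean. GPX4 was highest there, at 0.11, and GPX1, TXNRD1 and TXNRD2 were in the middle. Among ligand arrays, SREBF1, ABCG1 and MYLIP were also lowest on array 2, and ABCA1 was highest.

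The thioredoxin reductases of the cytosol and of mitochondria had log2 differences of -0.06 and 0.30 on their tested probe sets. TXNRD1, the cytosolic enzyme, gave 930, 981 and 1177 on ligand arrays 1 to 3, against 994, 1142 and 1078 on vehicle arrays 1 to 3 (201266_at). Its groups overlapped, with a log2 difference of -0.06 ± 0.22 (SE) that became 0.01 without ligand array 1. A second TXNRD1 probe set (1561080_at) was near the bottom of the scale, from 3.47 to 103 with the ligand and from 1.25 to 4.33 with vehicle, too dim to be tested.

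TXNRD2, the mitochondrial enzyme, gave 1169, 1040 and 991 on ligand arrays 1 to 3, against 898, 857 and 831 on vehicle arrays 1 to 3 (211177_s_at). All ligand arrays lay above all vehicle arrays. Its log2 difference was 0.30 ± 0.22 (SE), with a within-group SD of 0.094, at the 1.3 percentile of the tested probe sets. The other TXNRD2 probe set (210803_at) was too dim to be tested and went the other way, with a log2 difference of -0.42 and overlapping groups of 42.5 to 193 with the ligand and 109 to 196 with vehicle.

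MSRB1, which reduces one of the forms of oxidised methionine and is the selenoprotein among the methionine sulfoxide reductases, was lower with the ligand. It gave 5138, 4575 and 5815 on ligand arrays 1 to 3, against 8737, 6409 and 7783 on vehicle arrays 1 to 3 (217977_at). No ligand array reached the lowest vehicle array. Means were 5176 ± 621 and 7643 ± 1170 for ligand and vehicle (SD, n = 3 each), a log2 difference of -0.56 ± 0.19 (SE), or 1.47-fold lower. It stayed between -0.68 and -0.45 with any 1 array left out. Without ligand array 1, which stood apart, the log2 difference was -0.55 for MSRB1, 0.34 for GPX4, 0.67 for GPX2 (202831_at), 0.03 for SELENOP (201427_s_at) and 0.23 for TXNRD2 (211177_s_at).

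Among the 8 members, GPX3 had the largest range over the 6 arrays, 1.8 on the log2 scale. The probe sets of other genes closest to it were sought among 22562, by the root mean square distance of log2 profiles centred on their own means over the 6 arrays. The nearest 3 were SDHAF2, an assembly factor of succinate dehydrogenase, at a distance of 0.18, NDUFAF4, an assembly factor of respiratory complex I, at 0.21, and EFCAB13 at 0.23. SDHAF2 gave 113, 180 and 113 on ligand arrays 1 to 3 against 370, 309 and 409 on vehicle arrays 1 to 3. These 3 probe sets were dim, and a likeness over 6 arrays is a description of these animals.

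**Figure D3:**
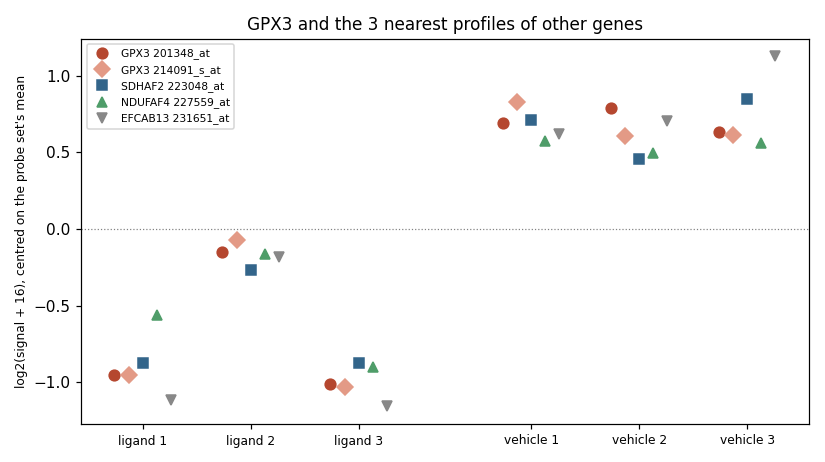
Log2(signal + 16) of both GPX3 probe sets and of the 3 nearest probe sets of other genes on each array, each centred on its own mean over the 6 arrays. On all 5 probe sets ligand array 2 lies between the other ligand arrays and the vehicle arrays.

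The wider selenium and redox genes were taken from 7 lists with 95 distinct genes besides the members, of which 82 were measured. Of these 42 were higher and 40 lower on the ligand arrays, and the median log2 difference was 0.02. In limma's test 0 of the 82 passed after adjustment over all tested probe sets (lowest adjusted p = 0.710), against 0% of all genes tested. An unadjusted p under 0.05 was found for 10 of the 82 (12.2%), against 6.12% of all genes tested. Groups did not overlap for 6 genes above vehicle and 4 below it, against 6.21% and 5.21% of all genes tested. The lists were chosen with earlier results of these data known, so nothing is read from these shares.

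**Figure D4:**
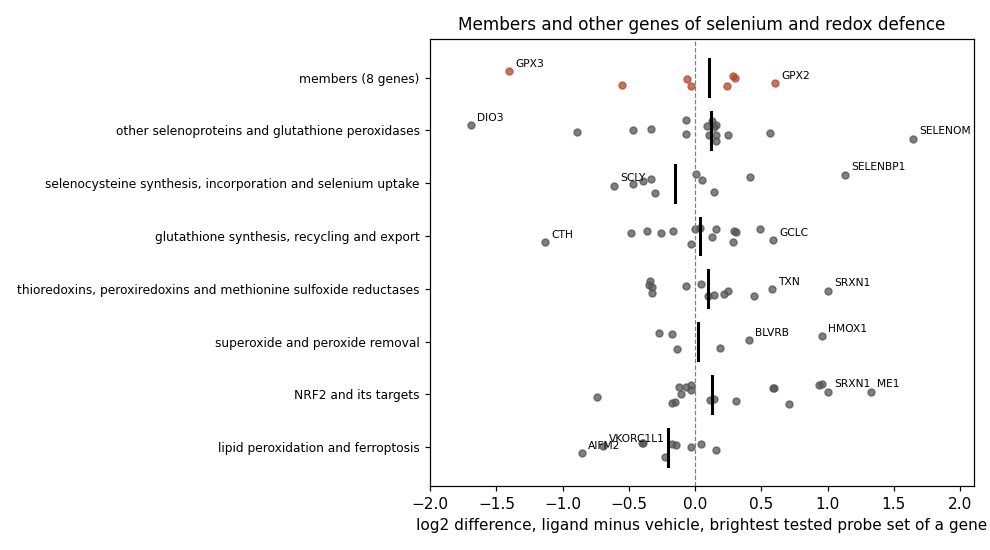
Log2 difference, ligand minus vehicle, of the brightest tested probe set of each gene, for the 8 members and the 7 lists, with a black bar at each median. The medians lie between -0.20 and 0.13, and the genes with the largest differences in each row are named.

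Other selenoproteins and glutathione peroxidases had 16 of 20 genes measured, 10 higher and 6 lower, their median log2 difference being 0.12, and 0 passed. DIO3, the deiodinase that inactivates thyroid hormone, had the largest difference, with 126, 616 and 368 on ligand arrays 1 to 3 against 742, 1070 and 1400 on vehicle arrays 1 to 3. All ligand arrays were below all vehicle arrays, with a log2 difference of -1.69 ± 0.49 (SE, limma adjusted p = 0.825), or -1.09 when ligand array 1 was omitted. SELENOM, a selenoprotein of the endoplasmic reticulum, read 231, 365 and 324 on ligand arrays 1 to 3 against 109, 198 and 23.5 on vehicle arrays 1 to 3, so that the log2 difference was 1.64 ± 0.62 (SE), and 0.96 when vehicle array 3 was omitted. SELENON, a selenoprotein of the same compartment known from muscle disease, and SEPHS2 had log2 differences of 0.56 and -0.47. Omitting ligand array 1 left SEPHS2 at -0.12, and omitting ligand array 2 gave -0.79. The median of this list was -0.12 without ligand array 1.

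The machinery of selenocysteine had 10 of 12 genes measured, 5 higher and 5 lower, with a median of -0.15, and 0 passed. SELENBP1, a selenium-binding methanethiol oxidase that holds no selenocysteine, gave 16489, 13264 and 11052 on ligand arrays 1 to 3 against 8163, 7414 and 3811 on vehicle arrays 1 to 3. All ligand arrays lay above all vehicle arrays, with a log2 difference of 1.13 ± 0.29 (SE, limma adjusted p = 0.710). SECISBP2, the protein that recruits the selenocysteine machinery to selenoprotein mRNAs, had a log2 difference of -0.40 ± 0.25 (SE), although its other tested probe set went the opposite way and the mean of both was -0.17. TRNAU1AP, which binds the selenocysteine tRNA, had 0.42 ± 0.31 (SE), with 0.15 when ligand array 1 was omitted, 0.22 without vehicle array 1 and 0.63 without ligand array 3.

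Genes of glutathione synthesis, recycling and export had 15 of 16 measured, 8 higher and 7 lower, with a median of 0.04, and 0 passed. CTH, the lyase that makes cysteine from cystathionine, gave 2528, 4280 and 2181 on ligand arrays 1 to 3 against 11089, 3721 and 6105 on vehicle arrays 1 to 3, overlapping groups with a log2 difference of -1.13 ± 0.38 (SE). It was -0.73 without vehicle array 1. SLC3A2, the heavy chain of amino acid exchangers, had -0.48 ± 0.22 (SE) with no overlap. GCLC, the catalytic subunit that starts glutathione synthesis, had 0.59 ± 0.29 (SE), or 0.23 without ligand array 1, and GLRX3, a glutaredoxin, -0.37 ± 0.27 (SE). GLRX3 was -0.05 without ligand array 3, -0.24 without vehicle array 1 and 0.15 on the mean of its 3 tested probe sets.

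In the list of thioredoxins, peroxiredoxins and methionine sulfoxide reductases, 13 of 14 genes were measured, 8 higher and 5 lower, with a median of 0.09, and 0 passed. That median was -0.02 without ligand array 2, 0.0029 without vehicle array 3 and -0.04 on the mean of each gene's probe sets. SRXN1, which restores overoxidised peroxiredoxins, gave 397, 450 and 485 on ligand arrays 1 to 3 against 197, 303 and 161 on vehicle arrays 1 to 3, a log2 difference of 1.0 ± 0.32 (SE) without overlap. TXN, the thioredoxin that TXNRD1 reduces, had a log2 difference of 0.58 ± 0.24 (SE), PRDX1, a cytosolic peroxiredoxin, 0.44 ± 0.26 (SE), and PRDX3, the mitochondrial one, -0.35 ± 0.23 (SE). PRDX1 was 0.27 without vehicle array 2 and 0.68 without vehicle array 3, and PRDX3 -0.23 without vehicle array 1. MSRA, MSRB2 and MSRB3, the relatives of MSRB1 without selenocysteine in human, were named after their values were seen. MSRA had -0.34, or -0.09 without vehicle array 1 and -0.56 without vehicle array 3. No direction is given for MSRB2 and MSRB3: on each, 1 of 3 tested probe sets had the sign of the brightest, and with 1 array left out the brightest ran from -0.30 to 0.38 for MSRB2 and from -0.72 to 0.34 for MSRB3.

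NRF2 and its targets had 18 of 20 genes measured, 10 higher and 8 lower, with a median of 0.13, and 0 passed. NQO1, a quinone reductase, gave 1713, 2692 and 2291 on ligand arrays 1 to 3 against 1058, 1359 and 1041 on vehicle arrays 1 to 3. All ligand arrays were above all vehicle arrays, with a log2 difference of 0.93 ± 0.24 (SE, limma adjusted p = 0.710). ME1, the malic enzyme that makes NADPH, had 1.32 ± 0.52 (SE), or 0.65 without vehicle array 3, and HMOX1, the haem oxygenase, 0.95 ± 0.42 (SE), or 0.42 without vehicle array 2. GCLM, the modifier subunit of glutathione synthesis, and NFE2L2, which encodes NRF2, had -0.03 and -0.07, and both changed sign with the array left out, from -0.49 to 0.52 for GCLM and from -0.16 to 0.06 for NFE2L2. Both were named after their values were seen. The median of this list was -0.03 with the filter at the 75th percentile.

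Superoxide and peroxide removal had 6 of 7 genes measured, 3 higher and 3 lower, with a median of 0.02, and 0 passed. That median was 0.19 without ligand array 3 and 0.18 on the mean of each gene's probe sets. Beside HMOX1, BLVRB, a biliverdin reductase, had a log2 difference of 0.40 ± 0.26 (SE), SOD1, the cytosolic superoxide dismutase, -0.27 ± 0.24 (SE), and HMOX2, the constitutive haem oxygenase, 0.18 ± 0.23 (SE). With 1 array left out, BLVRB lay between 0.25 (vehicle array 2 omitted) and 0.70 (vehicle array 1 omitted), SOD1 between -0.54 (ligand array 2) and -0.13 (ligand array 3), and HMOX2 between 0.02 (ligand array 1) and 0.31 (ligand array 3). For lipid peroxidation and ferroptosis, 10 of 12 genes were measured, 2 higher and 8 lower, with a median of -0.20, and 0 passed. AIFM2, which regenerates coenzyme Q and restrains ferroptosis alongside GPX4, had -0.86 ± 0.36 (SE) with overlapping groups. VKORC1L1, a vitamin K reductase, GCH1, which starts tetrahydrobiopterin synthesis, and DHODH, a mitochondrial enzyme of pyrimidine synthesis, had -0.70 ± 0.33, -0.39 ± 0.20 and -0.23 ± 0.23 (SE). Omitting ligand array 3 left VKORC1L1 at -0.38, GCH1 at -0.26 and DHODH at -0.07. DHODH was -0.44 without ligand array 1, -0.15 without vehicle array 2 and -0.56 on the mean of its 2 probe sets, and AIFM2 was -0.57 on the mean of its 2.

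Liver tissue mixes hepatocytes with other cell types, and in such samples fewer cells of a type and less RNA per cell cannot be told apart. Markers of hepatocytes, the main liver cell, were bright and overlapped between the groups, with a summed signal of 574771 to 636600 with the ligand and 558212 to 652243 with vehicle, and 4 of 9 measured markers higher. The summed signal of macrophage and Kupffer cell markers did not overlap, at 20209 to 25608 with the ligand and 11769 to 15881 with vehicle. All 10 tested markers were higher, from 0.20 for MSR1 to 1.62 for C1QA (log2). Of them 5 lay above vehicle on all ligand arrays (MARCO, C1QA, C1QB, C1QC and CD163), against 6.21% of all genes tested. CSF1R, VSIG4, CD14, CD5L and MSR1 overlapped. TIMD4 was below the filter and, unlike the tested markers, was not higher with the ligand.

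The summed signal of stellate cell and fibroblast markers also did not overlap, at 33673 to 46801 with the ligand and 18007 to 27651 with vehicle, with 8 of 10 higher: COL3A1, DCN, COL1A2, RGS5, ACTA2, LUM, BGN and LRAT, but not COL1A1 and PDGFRB. That separation depended on COL3A1, and without it the stellate sums would overlap between the groups. Taken singly, COL3A1 was above vehicle on all ligand arrays, COL1A1 below it on all, and the other 8 overlapped. For COL1A1, only 1 of its 3 tested probe sets, the brightest, was lower with the ligand. The summed signal of red cell markers was lower on all ligand arrays, at 1077 to 1699 against 1793 to 11715 with vehicle, although each of the 4 tested markers overlapped. The widest gap was in vehicle array 1, where HBB, a haemoglobin chain, read 11085, against 1255 and 828 on vehicle arrays 2 and 3 and 600 to 865 on ligand arrays. Without HBB the red cell sums would overlap between the groups. Of the other red cell markers, SLC4A1, AHSP and CA1 had log2 differences of -0.77, -0.24 and 0.13, and ALAS2 and HBD were below the filter. The GPX3 and MSRB1 differences without vehicle array 1 were -1.41 (201348_at) and -0.45. The part of cell composition in the member differences was not tested.

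**Figure D5:**
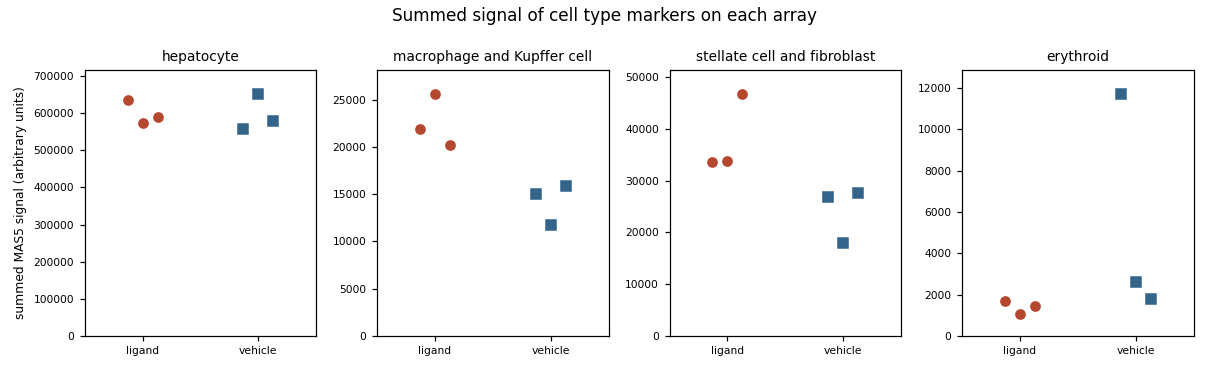
Summed MAS5 signal (arbitrary units, linear axes from 0) of hepatocyte, macrophage, stellate and red cell markers on each array, ligand (circles) left of vehicle (squares). Hepatocyte sums overlap between the groups, macrophage and stellate sums are higher on all 3 ligand arrays, and red cell sums are highest on vehicle array 1.

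Endothelial markers, VWF included, overlapped in summed signal, at 11590 to 14958 with the ligand and 11102 to 13429 with vehicle. That overlap came from VWF, and without it all ligand sums would lie above all vehicle sums. Of the markers, 9 of 10 were higher, and LYVE1, ENG and CDH5 lay above vehicle on all ligand arrays, with log2 differences of 1.02, 0.66 and 0.58. VWF, the clotting factor of endothelial cells, went the other way, with 157, 156 and 377 on ligand arrays 1 to 3 against 4667, 2129 and 1340 on vehicle arrays 1 to 3, a log2 difference of -3.39. These 4 genes were named after their values were seen. The sums of cholangiocyte, neutrophil, T and NK cell, B and plasma cell and platelet markers overlapped between the groups. As a check of RNA quality, the 3' control probe set was set against the 5' one, and their log2 ratio was 1.17 to 2.05 with the ligand and 0.991 to 1.7 with vehicle for GAPDH, and for ACTB it was 2.62 to 4 with the ligand and 2.15 to 3.06 with vehicle. In an exact two-sided permutation test, whose smallest possible p is 0.1 with 3 animals against 3, the groups gave p = 0.6 for GAPDH and p = 0.4 for ACTB. Ligand array 3 had the highest ratio for both controls, and without it the GPX3 log2 differences were -1.25 (201348_at) and -1.20 (214091_s_at).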

How the data were processed

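The deposited values are intensity values, linear MAS5 signals per the submitters' processing notes. Version and scaling target are not given in the sources used here, but the 2% trimmed mean signal was 500 on every array. RNA had been extracted from liver with a silica column kit and labelled with biotin, per the labels' protocols. Members, lists and tests were chosen with earlier results of these data known. Values were transformed to log2(signal + 16), with 62 control probe sets left out. Probe sets with a mean signal of 129 or more (the median) were tested with limma 3.58.1 under R 4.3.3 (lmFit and eBayes with an intensity trend, two-sided, 6 arrays, no covariates, Benjamini-Hochberg adjustment over 27304 probe sets, threshold 0.05). The test was run on simulated data first. A gene was represented by its brightest tested probe set with 1 symbol. Detection calls were not used. Named genes were all members, the 4 genes of smallest p in each list, 4 LXR targets, the 3 profiles nearest to the most variable member, and the markers of cell types whose sums did not overlap. Alternatives covered pseudocount, scaling, filter, variance model, array weights, replicate block, each array left out and averaging the probe sets of a gene. No sequences are shown. Figures were drawn with matplotlib 3.10.9.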

Additional observations from a re-analysis of the deposited data

How the results depend on the processing

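The sign of the log2 difference stayed the same under all 16 alternatives for GPX1, GPX2, both GPX3 probe sets, GPX4, TXNRD2 and MSRB1, and it changed under 4 of 16 for the bright SELENOP probe set, 2 of 15 for the dim one and 1 of 16 for TXNRD1. Scaling moved little: GPX3 (201348_at) was -1.43 and GPX4 0.26 with median centring, and no scaling moved the median of all probe sets by over 0.1. The number of probe sets called stayed at 0 under every alternative on all 6 arrays, and ran from 0 to 1 when each array was left out, with 1 called without ligand array 2 (SREBF1, at 3.06, limma adjusted p = 0.0453, passed there) and 1 without vehicle array 2. No gene of the redox lists passed under any alternative run. GLRX3 turned to 0.15 on the mean of its probe sets, where its other probe sets enter. Whether the replicate numbers shared by the groups pair the animals could not be told from 3 arrays a group. Same-numbered deviations correlated at 0.040, -0.031 and 0.070, and differently numbered ones at -0.076 to 0.034. With the replicate block 0 probe sets passed. Dim probe sets have little signal over background, which limits SELENOP 231669_at and the 4 untested ones.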
